A study of Homo sapiens with 24 samples.

Results

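The interval from 90 to 180 min of transcription block was examined in HMLE cells that express LacZ. HMLE cells are an established line of human mammary epithelial cells, immortalized in culture. The comparison rests on 6 of the 24 libraries of the series, 3 LacZ libraries taken at 180 min and 3 taken at 90 min. They were taken by their labels of line and time. The interval itself was chosen with earlier results of these data known. All 8 groups of the series received actinomycin D at 10 µg/mL, for 0, 90, 180 or 360 min, in LacZ cells or in HMLE cells made to over-express the RNA-binding protein RBMS3, with 3 replicates a group. LacZ cells serve as the control line and carry a gene for bacterial beta-galactosidase. No label names the promoter of either transgene or says how many clones stand behind each line. The study set out to find transcripts whose stability depends on RBMS3, and the LacZ cells give the course of loss at the control level of RBMS3. The second interval is given here across all measured genes, then against the first interval of the same cells and against the same interval in RBMS3 cells.

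Actinomycin D intercalates into DNA and stops the RNA polymerases, so that RNA is no longer replaced and each transcript declines at its own rate. Transcripts of immediate early genes, feedback inhibitors and many transcription factors are known for short half-lives. Many of them carry AU-rich elements in the 3′ untranslated region (3′ UTR), to which decay factors such as ZFP36 proteins bind. Messages for ribosomal proteins and glycolytic enzymes are known as long-lived. Mitochondrial DNA is transcribed from both strands into long precursors, from which transfer RNAs are cut out at both ends and thereby free the neighbouring messages and ribosomal RNAs.

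RNA was measured by QuantSeq, a method that sequences the 3′ ends of polyadenylated RNA after priming with oligo-dT. The values are normalized expression values per gene, scaled by the submitters so that libraries can be compared. The sources used here name no spike-in, so a value gives a gene's level relative to the other RNA of its library. A higher value at 180 min and a slower loss than the rest cannot be told apart. The 180 min libraries held 6424320 to 7714196 estimated reads and the 90 min libraries held 5992487 to 7271786. Genes with a value above 0 numbered 14452 to 14725 at 180 min and 14884 to 15089 at 90 min. All 10 of the 10 mammary epithelial and basal markers examined were present, with a summed value of 30403 to 30955 at 180 min and 28357 to 28532 at 90 min. Of 23 leukocyte, endothelial and fibroblast markers, 10 were at 0 in all 6 libraries, and their summed value was 105 to 178 at 180 min and 101 to 154 at 90 min. RBMS3 itself stood at 27.6, 97.0 and 59.2 in the 180 min libraries, against 48.7, 60.5 and 130.0 in the 90 min libraries of LacZ cells, and PRRX1, a mesenchymal transcription factor, was at 0 in all 6. In RBMS3 cells RBMS3 stood at 179, 178 and 224 at 180 min, against 174, 236 and 219 at 90 min. Among the LacZ libraries at 0 min, replicate 2 stood apart, with a mean correlation of 0.91 with its group against 0.932 and 0.931 for the other 2. Whether a replicate is its own culture is not stated in the labels. The p-values here speak only of differences among these particular libraries, part of which can be technical.

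Few transcripts changed beyond the spread between libraries. With all 6 libraries more genes fell than rose, and without replicate 2 at 90 min this order turned, with 16 rises and 11 falls. Of 38849 genes in the table, 12096 had a mean of at least 10 over all libraries and were tested. At an adjusted p under 0.05 (limma on log2(value + 1), Benjamini-Hochberg over all tested genes), 43 genes fell and 19 rose. These are 0.355% and 0.157% of the genes tested, 0.513% together. In all 62 the 180 min libraries did not overlap the 90 min libraries, which held for 18.7% of all tested genes. At an unadjusted p under 0.05 there were 618 lower and 592 higher genes. The median log2 difference over all tested genes was 0.01, and 5% to 95% of genes lay between -0.95 and 0.66. The 43 genes that fell kept a median of 44.1% of their 90 min mean at 180 min. The split between rises and falls depended on the scaling. With libraries set to the same total, 15 genes rose and 76 fell. With libraries set to the summed ribosomal protein genes, 12 rose and 119 fell, and the median of all genes moved by -0.14 on the log2 scale. When the spread was taken from the 6 libraries alone, 4 genes rose and 9 fell. Single libraries also carried weight: 25 genes fell without replicate 1 at 180 min and 28 without replicate 2 there, while 13, 11 and 21 fell without replicate 1, 2 or 3 at 90 min. Those that rose numbered 8, 10 and 11 without replicate 1, 2 or 3 at 180 min, and 7, 16 and 8 without replicate 1, 2 or 3 at 90 min. MCL1, IRF2BP2, PHLDA1, MT-ND3, MT-TC and MT-TV were among the genes that passed in every one of these and the other settings tried in the table.

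**Figure D1:**
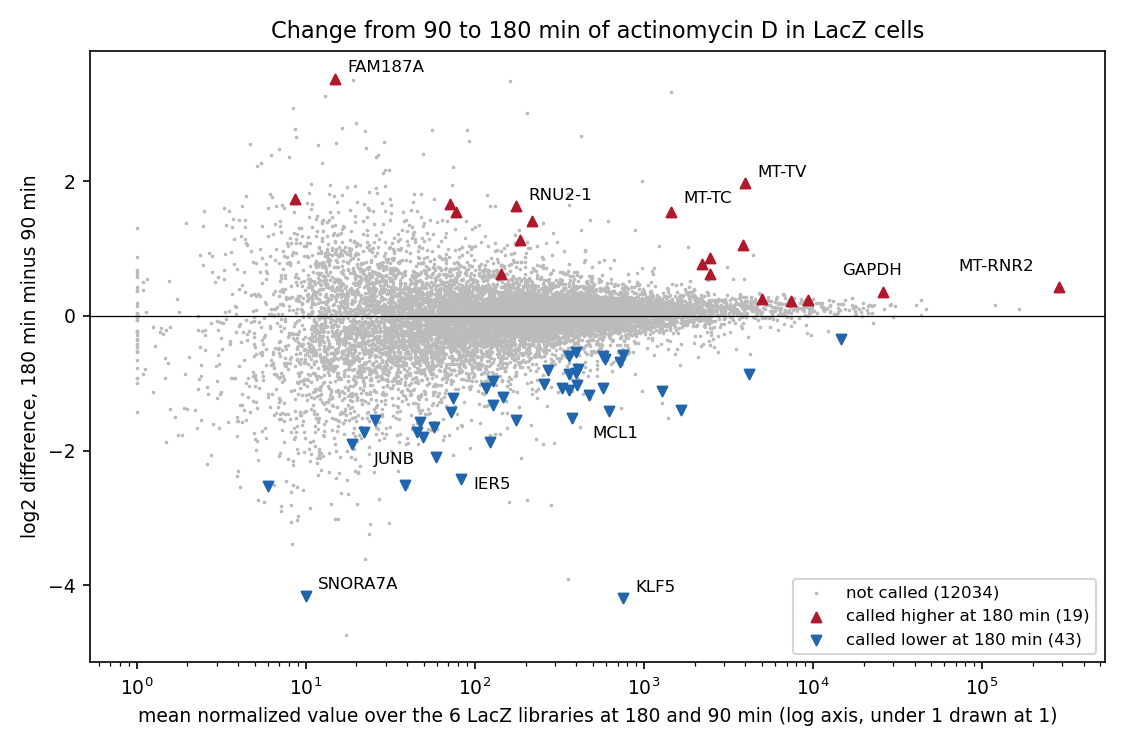
Log2 difference of each tested gene in LacZ cells (180 min minus 90 min, vertical axis) against its mean normalized value over the 6 libraries (horizontal log axis). Grey points did not pass the test, red triangles are the 19 genes that rose and blue triangles the 43 that fell. MT-TV lies far from 0 at high level, while most genes lie close to 0.

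The same 6 libraries were also tested on estimated reads per gene, with edgeR's quasi-likelihood test, because the normalized values carry a factor for transcript length that differs between libraries for some genes. This fit was chosen after the data were seen. It called 23 genes higher and 130 lower among 11642 genes with usable reads, which is 0.198% and 1.12% of them, 1.31% together. Of the 62 genes called in the table, 60 could be tested on reads; MCL1 and BTG1 could not. All 60 had the same sign on reads and 54 were called there too. The 6 not called on reads included MAP1A, MLYCD, MT-CO1, CCDC66 and FAM187A.

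Genes known as immediate early or labile held 9 of the 43 that fell. This list, like the others, was chosen with earlier results of these data known. Its share of falls can be raised by that choice. Of 24 tested genes of this kind, 9 fell and none rose, against 0.355% and 0.157% of all tested genes; 22 of the 24 had a negative log2 difference, with a median of -0.89 against 0.01 over all tested genes. Those that fell were JUN, JUNB and FOSL1, subunits of the AP-1 transcription factor, the immediate early genes IER2, IER3 and IER5, the zinc finger transcription factor KLF6, the anti-proliferative gene BTG1 and the anti-apoptotic BCL2-family member MCL1. On reads 7 of the 21 testable members fell. All 9 were already below their 0 min mean at 90 min, and 7 had passed the test in that first interval; MCL1 and FOSL1 had not. In bulk RNA, fewer cells that express a gene and less RNA per cell cannot be told apart.

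JUN showed 28.5, 12.3 and 34.2 in the 180 min libraries, against 68.7, 74.1 and 67.7 in the 90 min libraries. Every 180 min library was below every 90 min library, and the log2 difference was -1.57 ± 0.30 (SE), with an adjusted p of 0.0192. JUNB showed 22.8, 27.4 and 15.9 in the 180 min libraries, against 95.4, 104 and 88.4 in the 90 min libraries, a log2 difference of -2.10 ± 0.43 (adjusted p 0.0247). IER5, a regulator of heat shock factor, showed 26.2, 32.2 and 18.2 in the 180 min libraries, against 175, 139 and 107 in the 90 min libraries. Its log2 difference of -2.42 ± 0.55 was the lowest of the list, with an adjusted p of 0.0497 that is close to the threshold. IER3 had 856, 760.5 and 782 at 180 min, against 1796, 2021 and 1436 at 90 min (log2 difference -1.12, adjusted p 0.0488). MCL1 had 299.8, 369.8 and 356 at 180 min, against 932, 906 and 877 at 90 min (log2 difference -1.41 ± 0.23, adjusted p 0.0059). It kept 37.8% of its 90 min mean, and the groups did not overlap.

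Several genes of the list did not pass the test; those given here were chosen after their values were seen. MYC, the growth-promoting transcription factor, had 3.17, 1.76 and 6.34 at 180 min, against 32.1, 12.9 and 13.7 at 90 min, without overlap (log2 difference -2.11 ± 0.95, adjusted p 0.453). CCN1, a secreted matricellular protein under YAP control, had 66.1, 87.9 and 59.8 at 180 min, against 330.3, 299 and 291 at 90 min, with no overlap between the times. Its log2 difference of -2.11 had an SE of 0.62, estimated over all 24 libraries, and an adjusted p of 0.17. EGR1 had 57.0, 45.4 and 41.0 at 180 min, against 70.6, 50.9 and 122 at 90 min and its times overlapped. By 90 min EGR1 had a mean of 81.1 ± 36.5, against 872 ± 109.8 at 0 min (SD, n = 3 each). GADD45A, a stress-response gene, stood at 295, 308 and 329.9 at 180 min, against 333, 303 and 269.7 at 90 min, and JUND, the third JUN-family gene, at 301, 258 and 258 at 180 min, against 268, 296 and 256 at 90 min. Both overlapped between the times.

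The AU-rich motif TATTTAT lies in the 3′ UTR of several of these genes. The stretch around it is shown for 5 of the 18 genes that fell and carry it, to show the motif in genes described here, as DNA 5′ to 3′ from GENCODE release 29 transcripts (GRCh38), with the motif in capitals. JUN and MCL1 are labile genes of the list above, IER5 is its most reduced member, and SERTAD1 and KLF5 are described next.
JUN: gcttatgaaTATTTATaacagcatt
MCL1: ctctacagaTATTTATatcaattcc
IER5: ataataatgTATTTATagaattaaa
SERTAD1: gtctacctgTATTTATtgaggagcg
KLF5: gtttatcttTATTTATtttgtggta

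The share of genes with these motifs is given as a description of the annotation. A single annotated transcript a gene was used, and 39 of the 43 genes that fell had an annotated 3′ UTR. On the transcript strand, TATTTAT was present in 18 of these 39, or 46.2%, against 34.1% of 11276 tested genes with a 3′ UTR. The shorter ATTTA, which every TATTTAT contains, was present in 71.8%, against 71.6% of the tested genes. Their median 3′ UTR length was 1216 bases, against 1172. The annotated transcript had at most 2 exons in 19 of the 39, or 48.7%, against 5.96% of the tested genes. A single exon was annotated for 15.4%, against 1.68%; in the transcripts used, these included JUN, JUNB, IER5, CEBPB and FOXC2. Among the 125 genes called lower on reads that had a 3′ UTR, 28.0% had at most 2 exons. TATTTAT was present in 46 of these 125, or 36.8%, close to the 34.1% of the tested genes. No test was made of these shares.

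Other genes that fell came from several classes. The amino acid transporter SLC38A2 had 388, 426 and 304 at 180 min, against 794, 781 and 762 at 90 min (log2 difference -1.08 ± 0.13, adjusted p 0.000206). The transcriptional corepressor IRF2BP2 had 236, 224 and 224 at 180 min, against 535, 491 and 444 at 90 min (log2 difference -1.10, adjusted p 0.00333). TSC22D1, a TGF-beta-responsive leucine zipper gene, had 82.8, 72.7 and 63.9 at 180 min, against 187, 197 and 169 at 90 min (log2 difference -1.33, adjusted p 0.0053). All of these were separated between the times in each library.

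Of 42 tested KLF-family and other labile transcription factors, 5 fell (KLF5, KLF6, CEBPB, IRX2 and TSC22D1) and none rose. Over all tested genes 0.355% fell and 0.157% rose. KLF6 was also counted among the immediate early or labile genes above. The median log2 difference of these factors was -0.35. On reads 8 of 41 fell, against 1.12% of all genes tested there. CEBPB, a bZIP transcription factor, had 78.7, 83.2 and 106 at 180 min, against 274, 228 and 285 at 90 min (log2 difference -1.55 ± 0.31, adjusted p 0.0232). SERTAD1, a cofactor of E2F transcription, had 18.2, 19.9 and 27.3 at 180 min, against 67.8, 89.1 and 75.6 at 90 min (log2 difference -1.79 ± 0.37, adjusted p 0.0275). DKK1, a secreted inhibitor of Wnt signalling, had 46.6, 60.2 and 51.4 at 180 min, against 216, 197 and 171 at 90 min (log2 difference -1.87 ± 0.36, adjusted p 0.0181) and was the sole member of 26 tested Wnt pathway genes to pass in the table and of 25 on reads. FOXC2, a forkhead factor linked to epithelial-mesenchymal transition, had 3.42, 12.3 and 7.97 at 180 min, against 30.5, 35.9 and 22.6 at 90 min (log2 difference -1.90, adjusted p 0.00591); the other 44 of 45 tested mesenchymal genes did not pass in the table, and SNAI2 fell on reads. AEN, a nuclease induced by p53, was the sole p53 target of 28 to pass in the table (on reads 3 of 27 fell, AEN, PLK2 and SESN2), at 91.5, 99.6 and 69.7 at 180 min, against 184, 187 and 139 at 90 min. Other genes that fell were CCDC71, ZSWIM1 and RNF169, a ubiquitin ligase of the DNA damage response, with log2 differences of -1.64, -1.72 and -1.43.

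Among feedback inhibitors of ERK and BMP signalling, 1 of 17 tested genes fell in the table, against 0.355% of all tested genes. That gene was PHLDA1, a pleckstrin-homology domain gene, with 280.3, 304 and 294 at 180 min, against 675, 695 and 617 at 90 min (log2 difference -1.17 ± 0.19, adjusted p 0.0053). The median of the list was -0.93 and 16 of the 17 log2 differences were negative. On reads 5 of the 17 fell, against 1.12% of all genes tested there. They were PHLDA1, the ERK phosphatases DUSP4 and DUSP6, the EGF receptor inhibitor ERRFI1 and the helix-loop-helix inhibitor ID2. DUSP6 had 26.3, 39.2 and 60.0 at 180 min, against 146, 124 and 106 at 90 min in the table, without overlap, and a log2 difference of -1.62 (adjusted p 0.0655) there against -1.77 on reads (adjusted p 0.000839). ERRFI1 had 224, 148 and 166 at 180 min, against 378, 282 and 328 at 90 min, a log2 difference of -0.88 in the table (adjusted p 0.0573) and -0.91 on reads (adjusted p 0.00837).

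Replication-dependent histone transcripts, which lack the usual poly(A) tail, had a median log2 difference of -1.16 over 18 tested genes, and 16 of the 18 were negative. None passed in the table and 7 had an unadjusted p under 0.05. On reads 2 of 17 fell, H4C3 and H2AC6, against 1.12% of all genes tested there. H4C3, the most abundant of them, had 3116, 2935 and 2678 at 180 min, against 3537, 4828 and 4044 at 90 min (log2 difference -0.50 ± 0.13, adjusted p 0.0929 in the table and 0.0224 on reads). In 16 of the 18 the mean was under 50 at 90 min; H1-4, for example, had 2.28, 5.68 and 4.56 at 180 min, against 17.2, 27.8 and 14.7 at 90 min. Inflammatory and NF-kappaB genes had no member past the test among 25, with a median of -0.02. AREG, an EGF receptor ligand, stood at 3010.4, 2989 and 2973 at 180 min, against 3103, 2958 and 2921 at 90 min, and the times overlapped. The NF-kappaB inhibitor NFKBIA had 27.9, 64.2 and 20.6 at 180 min, against 94.4, 63.4 and 68.7 at 90 min and fell on reads alone (log2 difference -1.16, adjusted p 0.0346). Of 136 KRAB-type zinc finger genes, 1 fell in the table, ZNF584, against 0.355% of all tested genes, and the median was -0.22. On reads 3 of 131 fell, against 1.12% of all genes tested there.

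KLF5, an epithelial transcription factor, had the lowest log2 difference of all called genes in the table, and the size of its change differed between the table and the reads. Its normalized values were 49.7, 48.4 and 47.0 in the 180 min libraries, against 1598, 172 and 2633 in the 90 min libraries. On scaled reads it had 69.5, 59.6 and 59.2 at 180 min, against 185, 213 and 185 at 90 min. The ratio of normalized value to scaled reads was 0.714, 0.812 and 0.795 at 180 min, against 8.63, 0.808 and 14.3 at 90 min. In replicates 1 and 3 at 90 min, 3 and 5 reads were assigned to a transcript of 130 bases with an effective length of 4.37, and none were in replicate 2. The log2 difference was -4.19 ± 0.56 in the table (adjusted p 0.000692) and -1.65 on reads (adjusted p 4.64e-07). KLF5 fell on both scales, by different amounts. MLYCD, which encodes malonyl-CoA decarboxylase, had 14.1, 10.99 and 5.79 at 180 min, against 80.3, 91.6 and 29.4 at 90 min in the table. Its log2 difference was -2.51 in the table (adjusted p 0.0189) and -0.86 on reads (adjusted p 0.494). CCDC66, a gene of the centrosome and cilium that rose in the table, had 104, 106 and 135 at 180 min, against 42.1, 23.7 and 57.5 at 90 min, a log2 difference of 1.54 in the table and 0.14 on reads (adjusted p 0.927). The factor ranged more than 1.5-fold over the 6 libraries in 27.1% of 11208 genes and in 5 of 57 called genes.

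**Figure D2:**
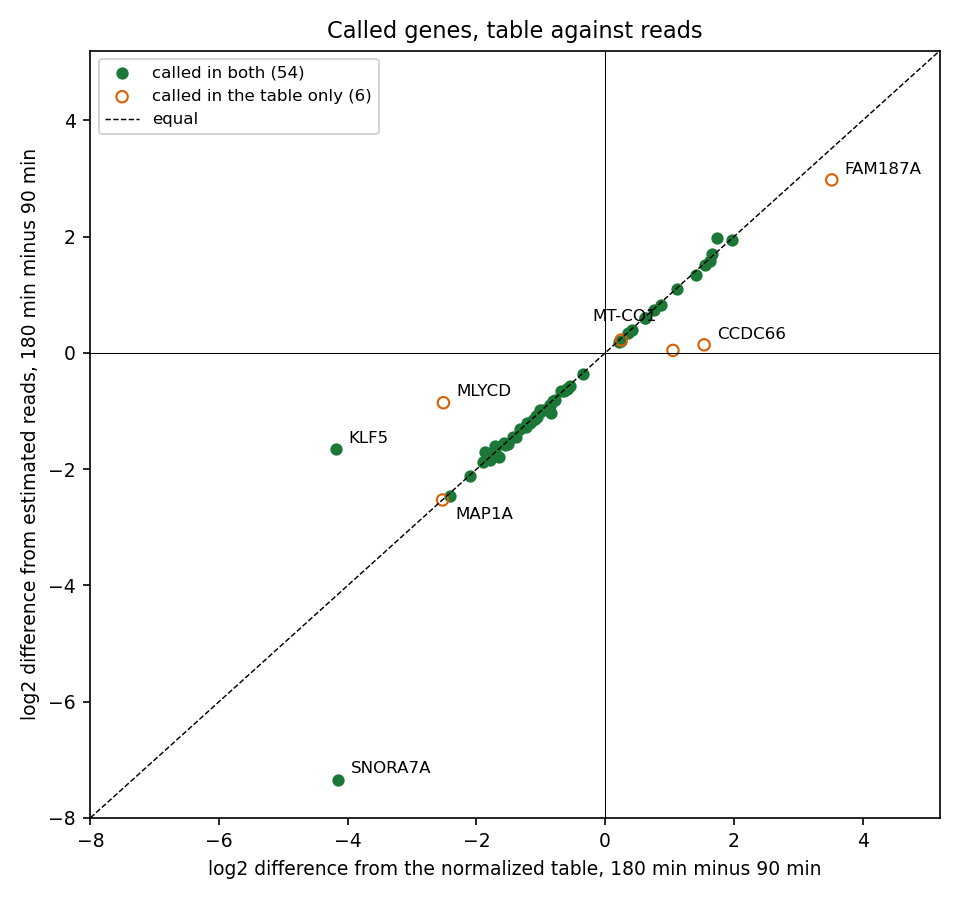
Log2 difference (180 min minus 90 min, LacZ cells) of the 60 called genes with usable reads, from estimated reads (vertical) against the normalized table (horizontal). Filled points were called on both scales and open points in the table only; KLF5, MLYCD, CCDC66, and SNORA7A with its 0 values at 180 min, lie off the line of equal values.

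Mitochondrial transfer RNA genes supplied 6 of the 19 genes that rose. How their reads entered a library primed with oligo-dT was not tested. These values therefore cannot tell mature tRNA from uncut precursors. Of the 22 mitochondrial tRNA genes 16 were tested; 6 rose and 1 fell, against 0.157% and 0.355% of all tested genes, and 12 of the 16 log2 differences were positive, with a median of 0.74. MT-TV (tRNA for valine) had 6720.4, 6049 and 6242 in the 180 min libraries, against 1429.6, 1682 and 1762 in the 90 min libraries. Its mean at 180 min was 390% of that at 90 min, the groups lay far apart, and the log2 difference was 1.97 ± 0.17 (adjusted p 1.95e-06 in the table and 4.71e-08 on reads). MT-TC (cysteine) had 2189, 2090.4 and 2181 at 180 min, against 731, 810.4 and 671 at 90 min (log2 difference 1.55 ± 0.17, adjusted p 2.57e-05). MT-TD (aspartate) had 93.5, 90.8 and 146 at 180 min, against 28.6, 35.9 and 35.3 at 90 min (log2 difference 1.67, adjusted p 0.0181). MT-TF (phenylalanine), MT-TL1 (leucine) and MT-TM (methionine) rose by 0.86, 0.77 and 1.12 on the log2 scale. MT-TA (alanine) went the other way, with 207, 183 and 192 at 180 min, against 513, 709 and 466 at 90 min (log2 difference -1.51 ± 0.26, adjusted p 0.0084). The rise was seen in 5 of 9 tested tRNAs on the plus strand of the reference and in 1 of 7 on the minus strand, MT-TC; MT-TA is also on the minus strand.

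The sequence of MT-TV is shown as that of the tRNA with the largest rise, and those of MT-TC and MT-TA because they lie close together on the same strand and changed in opposite directions. The letters are the DNA of each gene, 5′ to 3′ on the strand of the RNA, in lower case throughout, from GRCh38: MT-TV at chrM:1602-1670 (plus), MT-TC at chrM:5761-5826 (minus) and MT-TA at chrM:5587-5655 (minus).
MT-TV: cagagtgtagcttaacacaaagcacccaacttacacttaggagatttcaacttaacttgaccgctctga
MT-TC: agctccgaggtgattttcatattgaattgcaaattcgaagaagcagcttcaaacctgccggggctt
MT-TA: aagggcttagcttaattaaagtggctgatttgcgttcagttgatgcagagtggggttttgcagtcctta

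The first genes of the plus strand, in order MT-TF, MT-RNR1, MT-TV, MT-RNR2 and MT-TL1, hold the ribosomal RNAs between tRNAs. MT-RNR2, the large ribosomal RNA of mitochondria, had 335838, 326050.0 and 316407 in the 180 min libraries, against 243063, 242630.0 and 244721 in the 90 min libraries (log2 difference 0.42 ± 0.07, adjusted p 0.0059). It made up 4.34% to 4.50% of a library at 180 min and 3.48% to 3.53% at 90 min. The smaller MT-RNR1 had 126840.0, 124416 and 127399 at 180 min, against 113452, 113032 and 112295 at 90 min and did not pass (log2 difference 0.16, adjusted p 0.431), although its libraries did not overlap. The call of MT-RNR2 was lost with libraries set to the ribosomal protein genes (log2 difference 0.28, adjusted p 0.0852). All mitochondrial genes together took 7.67% to 7.72% of a library at 180 min and 6.62% to 6.80% at 90 min.

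The 13 mitochondrial messages showed no common direction, with a median of -0.03 in a range of -0.86 to 0.27. MT-ND3, a subunit of respiratory complex I, fell. It had 2831, 2900.1 and 3244 at 180 min, against 6058, 5218 and 5070.0 at 90 min (log2 difference -0.86 ± 0.08, adjusted p 8.00e-06). MT-ND2, another complex I subunit, had 12676, 12980.4 and 13052 at 180 min, against 15956, 17277 and 15868 at 90 min (log2 difference -0.34 ± 0.07, adjusted p 0.0192). MT-CO1, a subunit of cytochrome oxidase, had 5303, 5436 and 5618 at 180 min, against 4816, 4447 and 4503 at 90 min (log2 difference 0.25, adjusted p 0.0436), a rise that did not pass on reads (adjusted p 0.0553) or with libraries set to the same total (log2 difference 0.16, adjusted p 0.238). The other 10 messages did not pass.

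**Figure D3:**
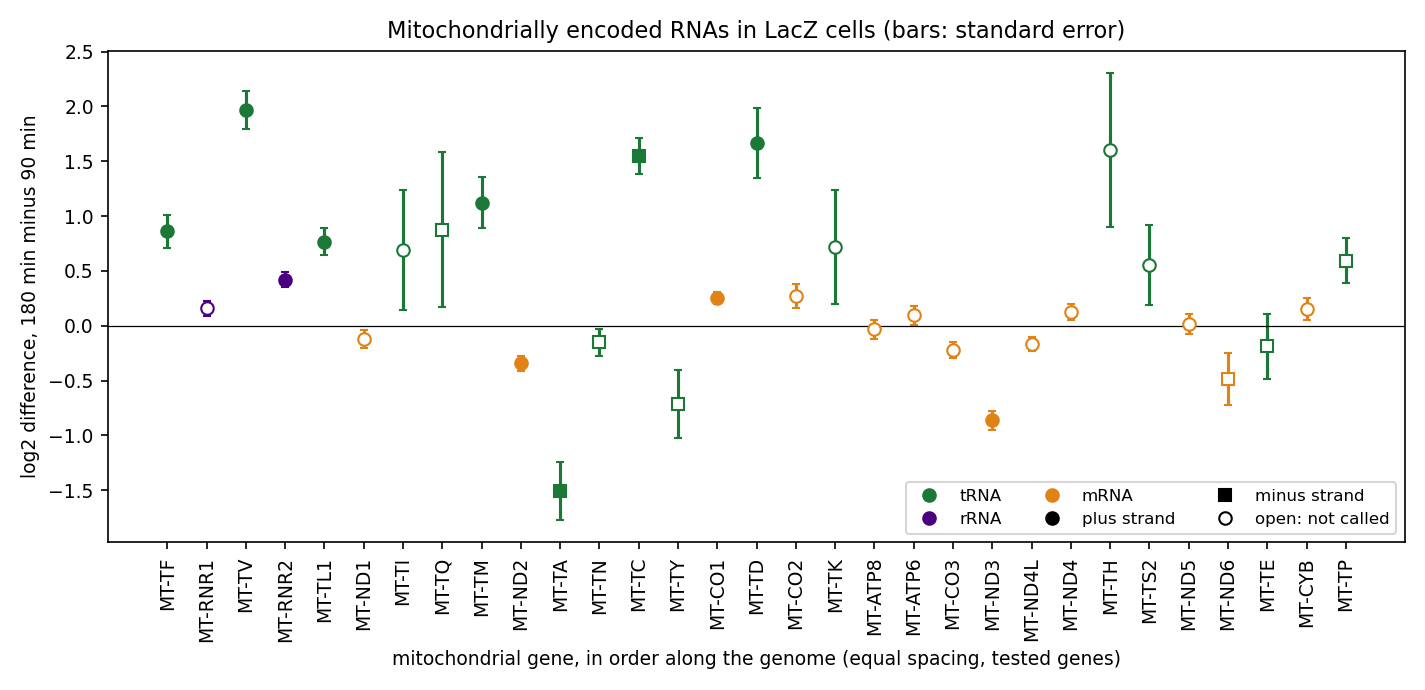
Log2 difference (180 min minus 90 min, LacZ cells) of the 31 tested mitochondrial genes in genome order, with bars for the standard error. Circles are plus-strand and squares minus-strand genes, filled where the test was passed; MT-TV, MT-TC and MT-TD lie highest among the filled symbols and MT-TA lowest.

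The 19 genes that rose included 3 small nuclear-encoded RNAs, while 0.157% of all tested genes rose. Such RNAs were not among the gene lists, and how many were tested was not counted. RNU2-1, the spliceosomal U2 RNA, had 203, 298 and 288 at 180 min, against 54.4, 124 and 84.4 at 90 min (log2 difference 1.63 ± 0.31, adjusted p 0.0181). RNA5S1, a gene of the small ribosomal RNA made by RNA polymerase III, had 268, 350.0 and 325 at 180 min, against 122, 170.2 and 76.6 at 90 min (log2 difference 1.41, adjusted p 0.0237). SNORD13, a small nucleolar RNA with its own promoter, had 3124, 3017 and 2807 at 180 min, against 1838, 2093 and 1893 at 90 min (log2 difference 0.62, adjusted p 0.029); with libraries set to the ribosomal protein genes it had 0.48 and did not pass (adjusted p 0.0945). RNU2-1 and RNA5S1 belong to families of near-identical copies, so that reads may be shared among copies and their values are uncertain. SNORA7A, which is encoded in an intron, was at 0 in all 180 min libraries, against 16.2, 35.9 and 7.85 at 90 min. It was called lower (adjusted p 0.0247). At 360 min in LacZ cells it stood at 39.9, 53.9 and 56.6, so the 0 values at 180 min do not show a lasting loss. Its log2 difference in RBMS3 cells was -0.04. These RNAs carry no usual poly(A) tail, and how they entered a library primed with oligo-dT was not tested.

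Classes of messages known as long-lived had median log2 differences close to 0, many of which changed sign with the scaling. Of 31 gene lists, 15 had a positive median; 14 of these turned negative with libraries set to the ribosomal protein genes and 11 with the same total, and no negative median turned positive. Of 80 tested cytosolic ribosomal protein genes, 74 had a positive log2 difference, the median was 0.14 and 1 passed, RPS13 with 10109.7, 9831 and 10465 at 180 min, against 8573, 8149 and 9049 at 90 min (log2 difference 0.24 ± 0.05, adjusted p 0.0237). On reads 4 of 77 rose, RPS3, RPS13, RPS14 and RPL41, against 0.198% of all genes tested there. With libraries set to the same total the median of these genes was 0.06 and none passed. Of 18 glycolysis genes 2 rose, GAPDH and LDHA, against 0.157% of all tested genes. GAPDH, often used as a reference gene, had 31672, 30316 and 26288 at 180 min, against 21698, 24419 and 22529 at 90 min (log2 difference 0.36 ± 0.08, adjusted p 0.0436); with libraries set to the same total its log2 difference was 0.27 (adjusted p 0.0876). LDHA had 8131, 7868 and 7874 at 180 min, against 6777, 6829.5 and 6855 at 90 min (log2 difference 0.22, adjusted p 0.0297), and 0.14 with the same total (adjusted p 0.28). The median of the glycolysis genes was 0.11, and -0.03 with libraries set to the ribosomal protein genes. Nuclear genes of the respiratory chain had no member past the test among 76, with a median of 0.07 that turned to -0.07 under that scaling and to -0.02 with the same total. Among proteasome (33 genes), translation factor (35), SR and hnRNP splicing factor (31), G2 and mitosis (40), S phase (49) and heat shock (26) genes, none passed the test in either direction in the table. At an unadjusted p under 0.05 these lists had 2, 7, 3, 4, 3 and 6 genes, and on reads none passed. The highest-expressed members stood close to 0 in log2 difference, such as -0.11 for the elongation factor EEF1A1, 0.10 for the poly(A)-binding protein PABPC1 and 0.02 for the chaperone HSP90AB1. PSMA7 and PSMD2 of the proteasome had 0.17 and 0.18, HNRNPK and HNRNPC had 0.12 and 0.17, and the respiratory chain genes UQCRB and ATP5F1E had 0.04 and 0.21. Among cell cycle genes, TOP2A and PTTG1 had -0.21 and 0.10, and the replicative helicase subunits MCM4 and MCM7 had 0.27 and 0.11. None of these passed. MAGED2, a MAGE-family gene, rose, with 176, 183 and 162 at 180 min, against 97.3, 127 and 116 at 90 min (log2 difference 0.62, adjusted p 0.0248), and had 0.48 with libraries set to the ribosomal protein genes (adjusted p 0.079).

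Genes of RNA decay showed no change past the test in the table. Of 52 RNA decay and AU-rich-binding genes none passed and 7 had an unadjusted p under 0.05, with a median log2 difference of 0.06 that turned to -0.08 with libraries set to the ribosomal protein genes. YTHDF2, a reader of methylated adenosine that recruits deadenylases and is not on that list, fell, with 248, 337 and 319.8 at 180 min, against 453, 513 and 589 at 90 min (log2 difference -0.78 ± 0.13, adjusted p 0.00676). Basal mammary genes (27 tested), TGF-beta genes (30), YAP and TAZ genes (28), interferon genes (31) and cholesterol and fatty acid genes (29) had none past the test in the table, with 4, 2, 6, 3 and 1 at an unadjusted p under 0.05. Abundant members, none past the test, had log2 differences of 0.15 (S100A2, basal), 0.00 (TGFBI, a TGF-beta target), -0.24 and -0.02 (F3 and ASAP1), 0.04 and 0.16 (B2M and IFITM3, interferon-responsive) and -0.10 for the lipid synthesis gene ACLY. Among mesenchymal genes CD44 had 0.12 and THBS1 had 0.05. On reads the basal gene BNC1, the YAP target AMOTL2 and the transcription factor IRF1 fell, with log2 differences of -0.79, -0.61 and -1.15.

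The second interval was then set against the first in the same cells, as the log2 change from 90 to 180 min minus that from 0 to 90 min. Both intervals use the 90 min libraries, so an error in these enters both changes with opposite sign. In this contrast 29 genes were positive (0.24% of those tested) and 17 negative (0.141%), 0.38% together. With libraries set to the ribosomal protein genes the counts were 35 and 12. Without replicate 1, 2 or 3 at 90 min, 13, 16 and 8 genes were positive and 6, 4 and 3 negative; without replicate 2 at 180 min, 15 and 10; without replicate 3 at 0 min, 25 and 10. The first interval alone had 416 genes higher at 90 min (3.44%) and 331 lower (2.74%). Of the 43 genes that fell in the second interval, 39 were already below their 0 min level at 90 min and 20 had passed the test there. Of the 19 that rose, 9 had also risen by 90 min and 5 had fallen by then.

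Some histone transcripts fell more in the first interval than in the second. H1-2, a linker histone, stood at 1926, 2712 and 1942 before treatment, 79.2, 113 and 60.9 after 90 min and 65.0, 74.7 and 46.7 after 180 min. Its contrast between the intervals was 4.29 ± 0.43 (adjusted p 1.86e-05). H2AC13, a core histone, had a contrast of 3.92 (adjusted p 0.0113). IER3 likewise lost less later, with a log2 change of -1.12 in the second interval and -3.26 in the first (contrast 2.14, adjusted p 0.0336). The same held for NFKBIA and ZFP36L1, an AU-rich-element decay factor, with contrasts of 2.76 and 1.51, which were picked out after their values were seen. JUN changed by -3.74 in the first interval and by -1.57 in the second on the log2 scale. Its contrast of 2.17 did not pass in the table (limma, adjusted p 0.0938). On reads its contrast of 2.24 passed (edgeR, adjusted p 0.00728).

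Mitochondrial genes, of which 31 were tested, made up 9 of the 29 positive genes, 6 messages and 3 tRNAs, and none of the 17 negative genes. Of all tested genes 0.24% were positive and 0.141% negative. By 90 min 11 of the 13 messages had fallen, against 2.74% of all tested genes, with a median log2 change of -0.62. MT-ND2 stood at 47501, 51167 and 43222 before treatment, 15956, 17277 and 15868 after 90 min and 12676, 12980.4 and 13052 after 180 min, a contrast of 1.19 ± 0.12 (adjusted p 1.86e-05). MT-ND6, the single message of the minus strand, had a contrast of 2.94 (adjusted p 0.00182), after 1523, 1613 and 1542 before treatment, 135, 137 and 162 after 90 min and 111, 107 and 91.1 after 180 min. MT-TV rose in both intervals, by 1.97 in the second and 1.77 in the first (contrast 0.20, adjusted p 0.871). MT-TM and RNU2-1 dipped at 90 min and rose after. RNU2-1 stood at 222, 213 and 199 at 0 min and 54.4, 124 and 84.4 at 90 min, and its contrast was 2.97 ± 0.53 (adjusted p 0.0116).

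Among the negative contrasts SNORD13 had risen by 2.28 on the log2 scale in the first interval and rose by 0.62 in the second (contrast -1.66 ± 0.23, adjusted p 0.00158). YIPF5, a membrane protein of the early secretory pathway, stood at 478, 510.3 and 407 before treatment, 949, 936 and 1041 after 90 min and 1121, 856 and 919 after 180 min, a contrast of -1.09 (adjusted p 0.00405). RNA5-8SN2, a ribosomal RNA gene with near-identical copies, had a contrast of -1.43 (adjusted p 0.0113). KLF5, MLYCD, CCDC66, RPH3A and C22orf39 passed this contrast in the table but not on reads. On reads 35 of the 45 called genes that could be tested passed. Without replicate 2 at 0 min, which stood apart, 23 genes were positive and 23 negative, and RPH3A, MT-TS2 and C22orf39 no longer passed (adjusted p 0.0742, 0.0725 and 0.0723).

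**Figure D4:**
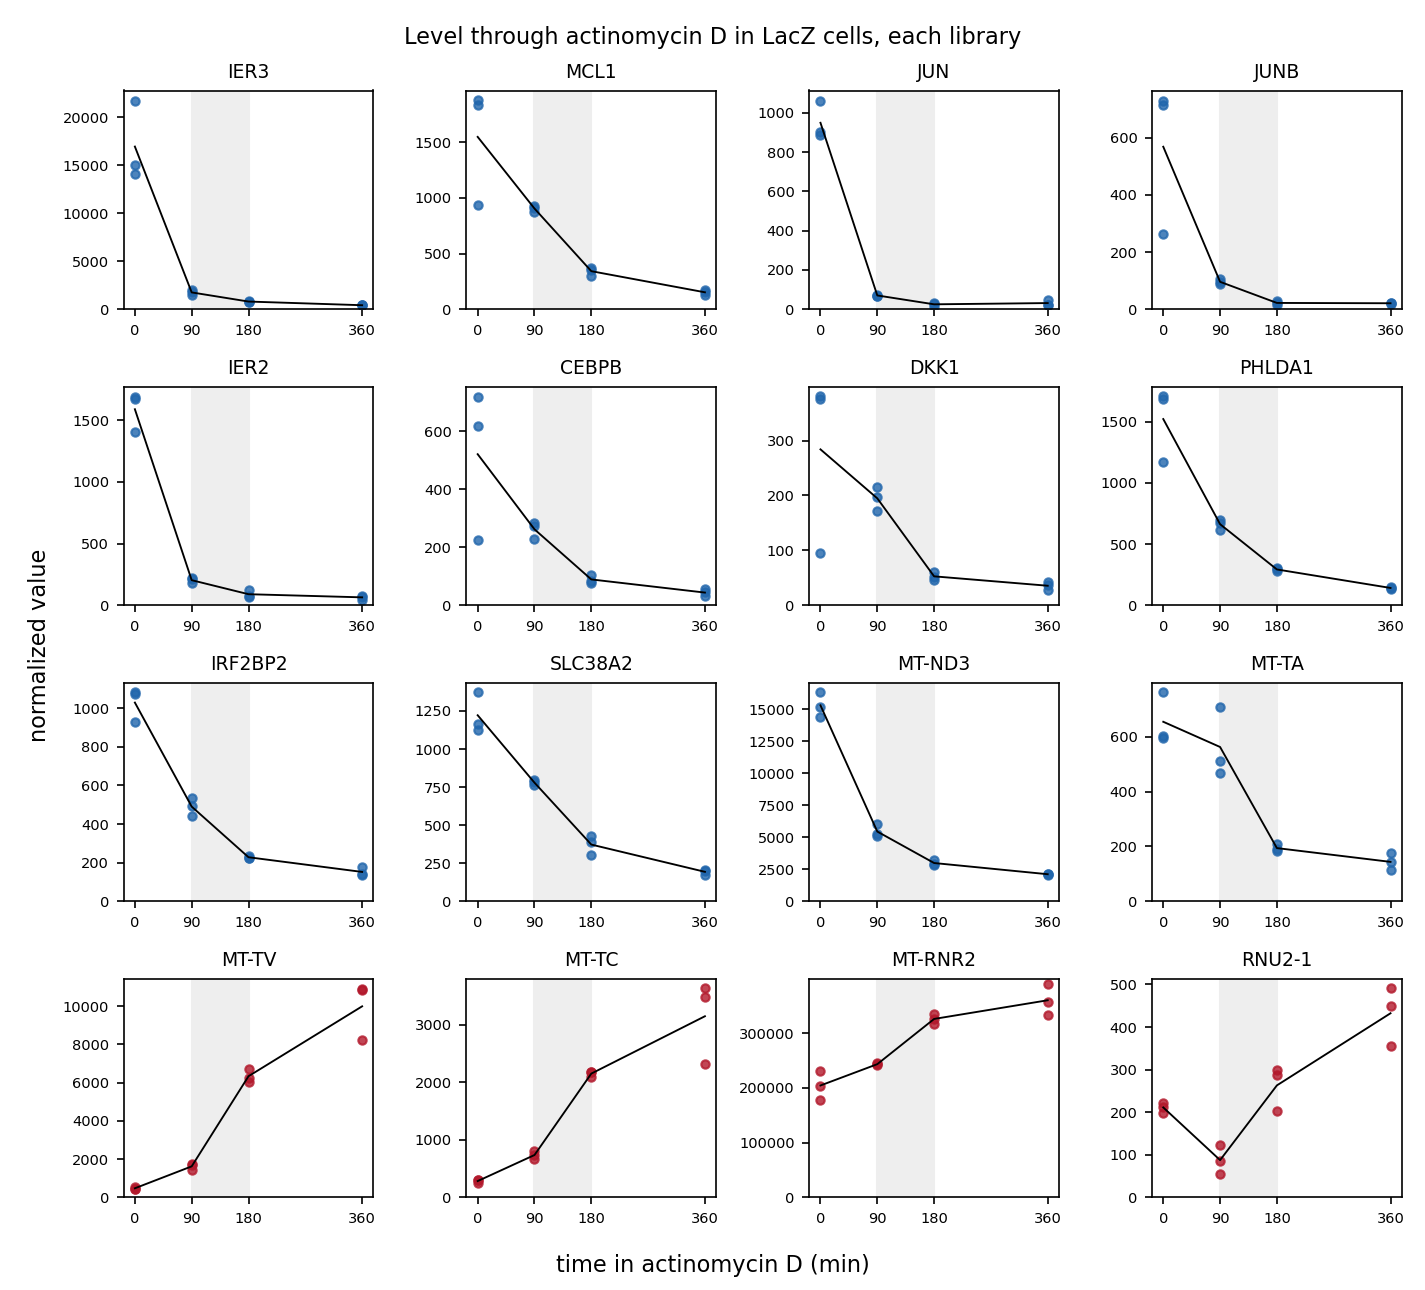
Normalized value (vertical, from 0) of 16 genes in each LacZ library through 0, 90, 180 and 360 min of actinomycin D (horizontal), with a line through the means and the interval from 90 to 180 min shaded. Blue genes fell and red genes rose in the shaded interval; IER3 fell in the shaded interval as well as before it, and RNU2-1 was lower at 90 min than at 0 min and rose after it.

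RBMS3 cells gave the same interval in libraries that share none with the LacZ comparison. There 49 genes were higher at 180 min (0.405% of those tested) and 116 were lower (0.959%). The genes called in LacZ cells mostly took the same direction. They were chosen by their LacZ change, so the size of that change can be inflated by the choice. Both lines were tested with the same spread per gene, estimated over all 24 libraries, so their calls are not independent. Of the 43 that fell in LacZ cells, 42 had a negative log2 difference in RBMS3 cells and 26 fell there, while 47.7% of all tested genes were negative. The median of the 43 was -1.21 in LacZ cells, against -0.94 in RBMS3 cells. Of the 19 that rose, 15 were positive and 9 rose there, while 52.0% of all tested genes were positive; the same 19 had a median of 1.05 in LacZ cells, against 0.31 in RBMS3 cells. Over all 12096 genes, the log2 differences of the 2 lines had a Pearson r of 0.234, and 0.324 over the 7355 genes with a mean of at least 100. These correlations run across genes, which are not independent replicates, and are given as descriptions.

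MCL1 had a log2 difference of -1.64 in RBMS3 cells and SLC38A2 had -1.06, and both passed. MT-TV had 3404, 2833 and 3163 at 180 min, against 907, 624 and 1244 at 90 min (log2 difference 1.81, adjusted p 5.46e-06). MT-TA fell there too (log2 difference -1.88), and 5 of the 16 tested mitochondrial tRNAs rose. MT-RNR2 and RNU2-1, which rose in LacZ cells, had 0.14 and 0.27 in RBMS3 cells and did not pass there. RNA5S1 had -0.01. Among the mitochondrial messages 7 of 13 fell in RBMS3 cells, with a median of -0.37.

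No gene differed between the lines in this interval at an adjusted p under 0.05, in the table or on reads. The change in LacZ cells minus that in RBMS3 cells had a smallest adjusted p of 0.168 with limma, and 0% of genes were called. At an unadjusted p under 0.05 there were 521 genes with limma, or 4.31%, and 488 with edgeR. Among the 521 were 15 of the 62 called genes. The 62 were chosen by the LacZ change, which is part of this difference. That count can therefore be raised by the choice alone. Without LacZ replicate 2 at 90 min 1 gene was positive and 1 negative, and without RBMS3 replicate 3 at 90 min 1 was negative. The difference between the changes was for MT-TV 0.16 ± 0.24 and for MT-RNR2 0.28 ± 0.10. DUSP6, with a log2 difference of -1.62 in LacZ cells and -0.07 in RBMS3 cells, had a difference of -1.55 ± 0.55 (adjusted p 1). H4C3 had a log2 difference of -0.50 in LacZ cells and -1.53 in RBMS3 cells, a difference of 1.03 ± 0.18 (adjusted p 0.168). A p that misses the threshold does not show that the lines act alike.

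**Figure D5:**
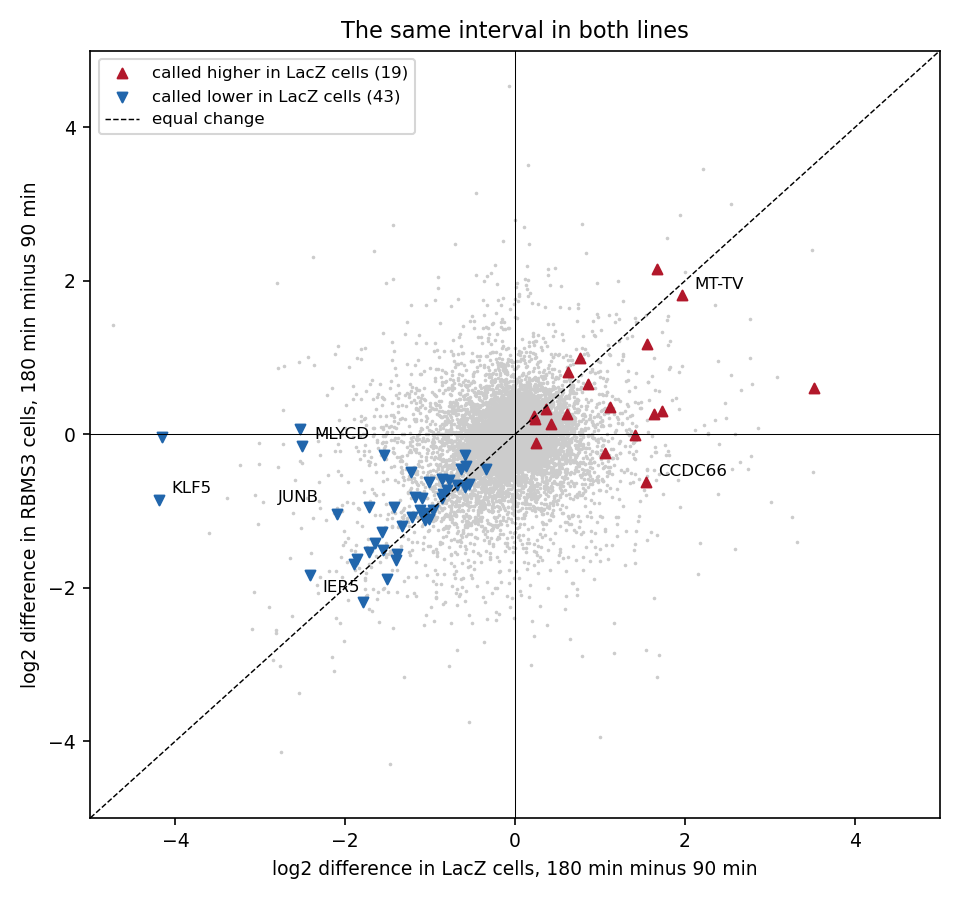
Log2 difference (180 min minus 90 min) of each tested gene in RBMS3 cells (vertical) against LacZ cells (horizontal), with axes cut at 5 in either direction, which leaves out 1 gene. Red and blue triangles are the 19 genes that rose and the 43 that fell in LacZ cells; 42 of the 43 lie below 0 in RBMS3 cells.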

How the data were processed

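Libraries were made with the QuantSeq 3′ method, per the labels' protocols. DESeq2 1.32.0, Salmon 1.4.0 and Trim Galore 0.6.6 are listed in the submitters' processing notes, which state no genome build. The deposited series table gives normalized signal values per gene (unit: signal, from the authors), and the deposited Salmon files give estimated counts (expected counts) per transcript. For 12 of 24 files, among them all 6 of the LacZ libraries at 180 and 90 min, the record's sample and the file's own name disagree. Which is right was not settled. Every value on reads rests on the match that follows. The columns of the series table carry the names of the files, so their line and time also rest on those names. In genes with 1 transcript, table value over reads was constant within 0.5% for at least 92.3% of genes with the column of the file's own name and for at most 3.92% with any other; files were matched to columns in this way. Columns were assigned to samples by title. Genes with a mean of at least 10 over 24 libraries were tested with limma 3.58.1 (R 4.3.3) on log2(value + 1), with 8 group means. Expected counts were summed per gene, rounded and tested with edgeR 4.0.16 (quasi-likelihood). The 454 genes with no matched reads, or whose median ratio of table value to scaled reads lay outside 0.5 to 2, were not tested on reads. Gene names are those of the table; 3′ UTRs, exons and sequences come from GENCODE release 29 (GRCh38). The fits were also run on simulated counts that carried no factor for transcript length. That run cannot tell how limma treats genes whose factor differs between libraries. The interval, comparisons and gene lists were chosen with earlier results of these data known. Named genes were the 15 with the largest log2 differences each way, provided they passed, did not overlap and averaged 50 or more where they were higher, up to 4 such members of each list (where none, the 2 most abundant), and the 6 largest contrasts of each sign between intervals. Other genes named were chosen after their values were seen. Some genes that the rule names are not reported here. Alternatives covered pseudocounts, filters, scaling, the groups in the fit, a replicate term, single libraries left out and the reads.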

Additional observations from a re-analysis of the deposited data

How the results depend on the processing

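None of the 62 called genes changed direction under any alternative that was run. Of 31 gene lists, 15 had a positive median, and 14 of these turned negative with libraries set to the ribosomal protein genes; 14 of 48 genes that the naming rule took without a call changed sign there too. The changes from 90 to 180 min gave 19 rises and 43 falls. Taking the spread from the groups compared alone gave 4 and 9, of which 11 were among the 62 genes. Setting libraries to the same total gave 76 falls, and setting them to the ribosomal protein genes gave 12 rises and 119 falls. The edgeR test on reads, chosen after the data were seen, gave 130 falls, with 54 of the 62 genes called. Leaving out 1 library gave 7 to 16 rises and 11 to 29 falls, with 18 to 32 of the 62 genes still called; 14 of the 62 passed each time. Without replicate 2 at 90 min rises (16) outnumbered falls (11). The contrast between intervals gave 29 positive and 17 negative genes, 3 and 0 with the groups compared alone, and 8 to 29 and 3 to 23 when 1 library was left out. The difference between lines gave 0 genes in each direction, and 0 to 1 when 1 library was left out. With a replicate block there were 20 rises, 35 falls, 18 positive and 9 negative contrasts and 0 line differences. Same-numbered LacZ libraries at 180 and 90 min had deviations that correlated by -0.05, 0.01 and 0.01. Of the 3, 1 correlated best with its own number. No shared deviation was seen, but 3 pairs cannot settle whether the numbers pair the samples. The causes of these differences were not tested. Leaving out a library leaves 2 in its group, and with 3 libraries a group at 5992487 to 7714196 estimated reads each, changes in genes of low level are poorly resolved.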
